A study of Mus musculus with 3 samples.

Results

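The genes described here are the translation initiation factors of group 2 innate lymphoid cells (ILC2s), tissue lymphocytes that lack rearranged antigen receptors and make type 2 cytokines. Members were all protein-coding mouse genes whose symbol begins with Eif and a digit, leaving out Eif2ak3, Eif4ebp1, Eif4ebp2 and Eif2s3y. The rule reads symbols only, but it was set with earlier results of these data known, and of the genes left out Eif2s3y and Eif4ebp2 lay below the detection limit used here. They are 52 of the 20983 protein-coding genes and of the 27179 gene IDs in the count table. The study sorted ILC2s from 3 wild-type C57BL/6 mice, with no other genotype, treatment or time point. The sort kept CD45, CD127, KLRG1 and CD90.2 positive cells that lacked CD3, CD5 and CD8 as well as NK1.1, B220, CD11b and CD11c. Full-length cDNA was amplified from the sorted cells and sequenced as 1 library per mouse. The sources used here do not state the tissue, the age or sex of the mice or the hour of collection.

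Translation begins when a ternary complex of eIF2, GTP and initiator tRNA joins the small ribosomal subunit with eIF1, eIF1A, eIF3 and eIF5. The cap-binding complex eIF4F, made of the cap-binding protein eIF4E, the scaffold eIF4G and the RNA helicase eIF4A, recruits this assembly to the mRNA, which is then scanned to the start codon. Each round releases eIF2 bound to GDP, and eIF2B recharges it. Stress kinases phosphorylate eIF2 and thereby block eIF2B, and 4E-binding proteins hold eIF4E away from the scaffold until mTOR phosphorylates them. Lymphocytes that are poised to secrete cytokines are known to rely on such control of mRNAs already made.

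The libraries held 17819551 to 26374248 counts, so a count of 0 allows at most 0.115 to 0.171 counts per 1000000 (CPM). Pairs of libraries differed by 133 to 226 per degree of freedom in a chi-square test, far more than sampling noise. All 12 ILC2 marker genes were detected, among them Gata3 and Il1rl1, with a summed level of 8040 to 10169 CPM. Of 9 plasma and B cell markers 6 were detected, and their summed level was 12464, 34218 and 62755 CPM in mice 1, 2 and 3, while Ms4a1 and Pax5 had 0 counts. The NK cell and ILC1 markers (1 of 5 detected) summed to 7.24, 241 and 51.4 CPM. Nearly all of this was Gzma, the detected marker, with 7.19, 229 and 48.2 CPM. Klrb1c reached 6.54 and Prf1 5.63 CPM, both in mouse 2, and Tbx21 and Eomes were at or near 0. T cell, myeloid and gut epithelial markers summed to 5.57 to 36.8 CPM in each library, with 2 of 5, 1 of 6 and 1 of 5 detected. The detected ones were Cd3e and Cd3d (T cell), Lyz2 (myeloid) and Epcam (gut epithelial), although the sort kept only cells that lacked CD3. Cd4, Cd8a, Itgam and Itgax were at or near 0, and Adgre1, S100a8 and S100a9 had 0 counts. In such bulk samples fewer cells of a type and less RNA per cell cannot be told apart.

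Nearly the whole set was expressed. At least 1 CPM in each library was reached by 48 of 52 initiation factors (92.3%), against 38.0% of all protein-coding genes. The members together took 0.957%, 0.885% and 0.980% of the counts in mice 1, 2 and 3. The Wilson intervals at 95% were 0.953% to 0.962%, then 0.881% to 0.889%, and lastly 0.976% to 0.984%. They cover counting error of reads only and not the spread between mice. The reads carry no molecular identifiers, so reads copied in amplification are not told apart. The summed level was 9340, 8967 and 9912 CPM, a mean of 9407 ± 476 (SD, n = 3). Mouse 2 was lowest and mouse 3 highest in this sum.

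Levels of different genes are compared below as CPM per kb of summed exon length. The median of the 48 detected members was 24.0, 22.8 and 28.5 CPM per kb in mice 1, 2 and 3, with a mean of 25.1 ± 2.98 (SD, n = 3). The median of all detected protein-coding genes was 5.54, 4.83 and 5.69 CPM per kb in the same libraries. Of the detected members 26 of 48 (54.2%) lay among the highest 25.0% of detected protein-coding genes per kb, and 38 lay above the median. By mean level the range was wide, from 652 CPM per kb for Eif1 to 0.907 for Eif2s3x. Eif5a and Eif1 alone carried 29.2% of the summed CPM, and the 5 highest by CPM carried 47.3%.

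**Figure D1:**
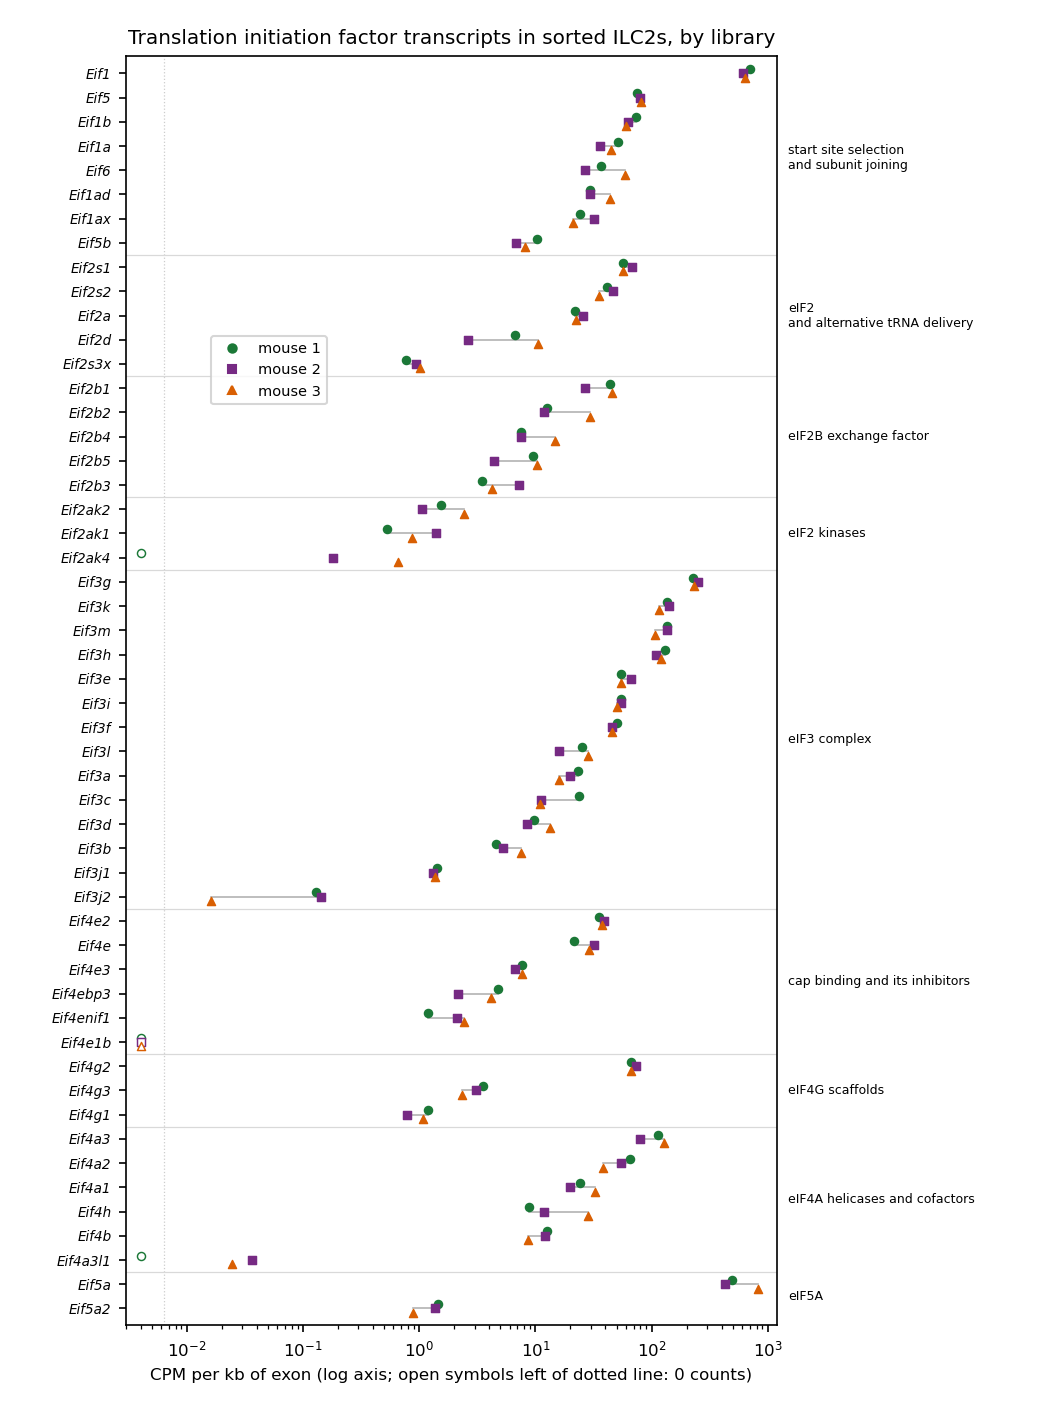
Level of each of the 52 initiation factor genes in CPM per kb of exon (log axis), grouped by role, with 1 symbol per mouse and a grey line spanning the libraries with counts. Libraries lie more than 2-fold apart for 11 of 48 tested members, Eif2d and Eif4h among them, and the detected eIF3 subunits range from 1.37 CPM per kb (Eif3j1) to 236 (Eif3g).

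Start site selection was represented by every member. Eif1, which keeps the scanning ribosome open until a start codon is met, had 1487, 1283 and 1332 CPM in mice 1, 2 and 3 (chromosome 11, 100319949 to 100322099, RefSeq GRCm38.p6). By its mean it was the highest member per length at 652 ± 50.9 CPM per kb. In mouse 3, however, Eif5a was higher, at 820 against 635 CPM per kb for Eif1. The values of Eif1 differed by 1.16-fold at most between libraries. Eif5, the GTPase activator that acts at start codon recognition and opposes eIF1, had 512, 546 and 551 CPM and 78.7 ± 3.10 CPM per kb. The copies of eIF1A, which works with eIF1 on the small subunit, differed in level: autosomal Eif1a had 213, 151 and 188 CPM and X-linked Eif1ax 128, 168 and 111 CPM. Per kb of exon Eif1a was the higher in each library, at 44.1 ± 7.52 against 25.8 ± 5.58 CPM per kb, with no test. Both have 432 coding bases, and in CPM alone Eif1ax was the higher in mouse 2. Eif1a was highest in mouse 1 and Eif1ax in mouse 2. Eif5b, the GTPase that joins the large subunit, was the lowest of this group at 8.42 ± 1.75 CPM per kb. Eif6, which keeps the large subunit from joining too early, had 98.3, 72.0 and 161 CPM, highest in mouse 3. Eif1ad, a gene related to eIF1A, had 82.5, 81.8 and 124 CPM.

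The start codons of 4 reference mRNAs are shown, those of the factors that choose start sites (Eif1, its paralogue Eif1b and Eif5) and that of Eif4g2, a scaffold described further on. The start codon is in capitals, with 9 bases before and 6 after it, from the GENCODE M21 transcript on GRCm38.
Eif1: tcgtatcgtATGtccgct
Eif1b: tagtgtcgcATGtccact
Eif5: taagccaaaATGtctgtc
Eif4g2: gccgccaaaGTGgagagt
Eif1 and Eif1b lack both the purine 3 bases before the start codon and the G directly after it that mark a favourable context. Among the 51 members with an annotated coding transcript, 45 had that purine, 26 had that G and 24 had both. Eif4g2 was the only one of the 51 whose annotated start was not ATG, a known case of initiation at GTG. These letters are a description of the reference, and translation was not measured.

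The eIF2 subunits were uneven. Eif2s1, the alpha subunit that stress kinases phosphorylate, had 284, 338 and 281 CPM, and Eif2s2, the beta subunit, had 279, 313 and 239 (21.9% of its 50-base words shared with other genes). Both were highest in mouse 2, at mean levels of 60.7 ± 6.49 and 41.0 ± 5.46 CPM per kb. Eif2s3x, the X-linked gamma subunit that binds GTP and the tRNA, had only 66, 63 and 101 counts, or 2.91, 3.58 and 3.87 CPM (chromosome X, 94188709 to 94212651). Its 0.907 ± 0.129 CPM per kb of exon was the lowest of all detected members, and Eif2s1 and Eif2s2 were 67.0-fold and 45.2-fold higher per kb. The lowest rank depends on the length used. Eif2s3x had a mean of 3.46 CPM on 1416 coding bases, and Eif4g1 7.40 CPM on 4800. Of the 50-base words in Eif2s3x transcripts 35.4% also occur in transcripts of other genes, chiefly Gm2223, which itself had 1 count in all. The sources used here do not state how reads that map to several places were counted, so the level of Eif2s3x is uncertain. The Y-linked copy, left out of the members, had 0 counts in each library.

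The factors that deliver initiator tRNA outside the usual route were also present. Eif2a, which can recruit tRNA without GTP, had 135, 158 and 137 CPM, a spread of 1.18-fold. Eif2d, which acts in reinitiation and recycling, had 48.9, 19.3 and 78.4 CPM and thus spread 4.07-fold, lowest in mouse 2 and highest in mouse 3.

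All 5 subunits of eIF2B were detected, at 5.0 to 38.8 CPM per kb. Eif2b1, the regulatory alpha subunit that senses phosphorylated eIF2, was the highest with 113, 69.6 and 118 CPM. Eif2b5, the catalytic epsilon subunit, had 24.9, 11.4 and 26.9 CPM, and its partner Eif2b3, the gamma subunit, 22.6, 47.4 and 27.7 CPM. Eif2b2 (23.6, 22.5 and 55.4 CPM) and Eif2b4 (19.5, 19.5 and 38.1 CPM), the other regulatory subunits, were highest in mouse 3. Thus 4 of the 5 subunits were highest in mouse 3, and Eif2b3 was highest in mouse 2. Within each library the median of the eIF2 subunits exceeded that of the eIF2B subunits by 2.08, 2.59 and 1.26 on the scale of log2((CPM + 0.5) per kb), a mean of 1.98 ± 0.67 (SD, n = 3) or 3.93-fold. An exact sign-flip test (two-sided) gave p = 0.25, its lowest possible value with 3 mice. Over coding length in place of exon length the difference was 3.77. The medians do not show that Eif2s3x, at 0.907 CPM per kb, lay below all 5 eIF2B subunits.

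The kinases of eIF2 lay near the lower end of the set. Eif2ak2 (PKR), which senses double-stranded RNA, had 7.85, 5.40 and 12.4 CPM. Eif2ak1 (HRI), the haem-regulated kinase, had 3.00, 7.85 and 4.91 CPM, with 12.1% of its 50-base words shared, chiefly with Aimp2. The order of these kinases changed between libraries, Eif2ak2 being higher per kb in mice 1 and 3 and Eif2ak1 in mouse 2. Eif2ak4 (GCN2), the sensor of amino acid shortage, had 0, 24 and 127 counts in mice 1, 2 and 3, or 0, 1.36 and 4.87 CPM. It missed the detection limit in mouse 1 only. Per kb, Eif2ak1 was at least 29.8-fold higher than Eif2ak4 in mouse 1, taking 3 counts as the upper limit for a count of 0 in that library, and 7.56-fold and 1.33-fold higher in mice 2 and 3.

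The eIF3 complex, the large scaffold that holds the small subunit together with mRNA and eIF4F, had 13 of 14 genes detected. Its detected subunits fell into a high, a middle and a low range per kb of exon. This order depends on the length used. Eif3k, for example, had a mean of 353 CPM on 654 coding bases, and Eif3g 469 CPM on 960. By exon length Eif3g, an RNA-binding subunit, led with 448, 502 and 456 CPM and 236 ± 14.6 CPM per kb. Eif3k (131 ± 13.1), Eif3m (126 ± 16.8) and Eif3h (120 ± 10.2) followed and did not differ from each other beyond their spread. Of these, Eif3k had 370, 378 and 313 CPM and Eif3m 352, 352 and 277 CPM, both lowest in mouse 3. Of the 50-base words of Eif3m 37.1% and of Eif3h 26.2% are shared with other genes, so their levels are uncertain. Eif3e (58.3 ± 6.87), Eif3i (53.2 ± 2.85) and Eif3f (47.2 ± 2.36) formed the middle range. The level of Eif3e is uncertain too, with 22.0% of its 50-base words shared. The spreads of Eif3e and Eif3i overlapped, and those of Eif3i and Eif3f did not. Lower levels were found for Eif3l (23.2 ± 6.44), Eif3a (19.7 ± 3.52), Eif3c (15.3 ± 7.30), Eif3d (10.5 ± 2.63) and Eif3b (5.78 ± 1.55).

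Eif3a, Eif3b and Eif3c encode the core on which the complex assembles, and all 3 lay below the eIF3 median of 47.2 CPM per kb. Eif3c was highest in mouse 1, with 83.4, 39.5 and 38.6 CPM. Eif3d, which can itself bind the cap of selected mRNAs, overlaps a gene of the opposite strand over 43.3% of its exon bases, and reads of the partners cannot be told apart in a library that does not mark strand. The loosely bound subunit gene Eif3j1 had 8.34, 7.73 and 7.90 CPM, 172-fold below Eif3g per kb. Eif3j2, its near-identical copy, had 7, 6 and 1 counts and was not detected. Of the 50-base words of Eif3j2 91.8% occur in other genes, chiefly Eif3j1, as do 54.8% of those of Eif3j1, so the division of reads between the copies is uncertain and no fold is given.

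Among cap-binding proteins Eif4e, the limiting subunit of eIF4F, had 128, 193 and 173 CPM, lowest in mouse 1. Eif4e2 (4EHP), a homologue that binds the cap but not eIF4G and represses translation, had 265, 290 and 282 CPM. Per kb it was the higher gene in each library, and the log2 difference of Eif4e over Eif4e2 was -0.46 ± 0.24 (SD, n = 3). Eif4e3, an atypical homologue, had 19.2, 16.7 and 19.3 CPM and lay below Eif4e by a log2 difference of 1.85 ± 0.39. Eif4e1b, known from oocytes, had 0 counts in each library. Eif4enif1 (4E-T), which carries eIF4E to the nucleus and to processing bodies, had 7.63, 13.5 and 15.5 CPM. The 4E-binding protein gene Eif4ebp3 had 3.57, 1.59 and 3.07 CPM, but 67.3% of its exon bases lie within another annotated gene of the same strand.

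The eIF4G scaffolds showed a steep order. Eif4g2 (DAP5), a shortened relative that lacks the eIF4E-binding site, had 682, 748 and 680 CPM (chromosome 7, 111067985 to 111083030). Eif4g3, a full-length scaffold, had 39.5, 34.0 and 25.8 CPM. Eif4g1, the scaffold usually named as the main one, had 8.65, 5.74 and 7.82 CPM (chromosome 16, 20672720 to 20692883). The 3 ranges did not overlap, and the order was the same in each library and per kb, at 69.2 ± 3.81, 2.99 ± 0.625 and 1.01 ± 0.205 CPM per kb. Eif4g2 exceeded Eif4g1 by a log2 difference of 6.02 ± 0.36, or 64.7-fold. Of their 50-base words 0.315% (Eif4g2), 0% (Eif4g3) and 0.0293% (Eif4g1) were shared with other genes.

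Of the helicases, Eif4a3, a core protein of the exon junction complex and not of eIF4F, was the highest per kb of exon. It had 243, 168 and 270 CPM and 107 ± 24.8 CPM per kb, and 23.6% of its 50-base words are shared. Eif4a2 had 345, 290 and 204 CPM (chromosome 16, 23107468 to 23114132), and Eif4a1, in most tissues described as the main eIF4F helicase, 105, 85.9 and 141 CPM (chromosome 11, 69666936 to 69672423). Eif4a1 lay below Eif4a2 in each library, by -1.41, -1.45 and -0.22 on the log2 scale per kb, and the gap was smallest in mouse 3. Over coding length the mean log2 difference of Eif4a1 was -1.32 against Eif4a2 and -1.01 against Eif4a3. By that length Eif4a2 and not Eif4a3 was therefore the highest helicase on average. Yet 65.3% of the 50-base words of Eif4a1 are shared, chiefly with the pseudogene Eif4a-ps4, against 14.0% for Eif4a2, so the level of Eif4a1 is uncertain. The helicase cofactors Eif4b and Eif4h changed order between libraries by exon length, though not by coding length. Eif4b had 55.9, 54.1 and 38.2 CPM and Eif4h 49.3, 65.9 and 157 CPM. Eif4a3l1, a gene like Eif4a3, had 0, 1 and 1 counts.

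Eif5a, the factor that carries hypusine and helps ribosomes through stalling sites, was the highest member by mean CPM. In mice 1 and 2 Eif1 was higher, with 1487 and 1283 CPM. Eif5a had 1173, 1011 and 1948 CPM (chromosome 11, 69916712 to 69921958), highest in mouse 3, and 579 ± 211 CPM per kb. Its paralogue Eif5a2, on chromosome 3 (28781032 to 28798846), had 7.32, 6.88 and 4.49 CPM and was lowest in mouse 3. Eif5a exceeded Eif5a2 by a log2 difference of 8.73 ± 0.84, or 423-fold per kb.

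How far paralogue reads can be told apart is visible in the coding sequences. For Eif1, Eif4a1 and Eif5a and a paralogue of each, the 60 coding bases nearest the middle of the alignment are shown, from GENCODE M21 transcripts on GRCm38, with the bases that differ between the copies in capitals.
Eif1: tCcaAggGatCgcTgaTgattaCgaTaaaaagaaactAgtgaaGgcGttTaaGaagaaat
Eif1b: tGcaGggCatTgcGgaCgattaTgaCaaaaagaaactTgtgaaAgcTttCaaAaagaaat
Eif4a1: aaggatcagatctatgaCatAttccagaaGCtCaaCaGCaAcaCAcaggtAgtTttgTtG
Eif4a2: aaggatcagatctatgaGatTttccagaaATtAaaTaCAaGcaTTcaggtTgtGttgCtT
Eif5a: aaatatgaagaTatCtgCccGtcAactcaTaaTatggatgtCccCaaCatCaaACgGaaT
Eif5a2: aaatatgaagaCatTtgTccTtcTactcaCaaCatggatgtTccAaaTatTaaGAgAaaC
Each stretch holds 13 to 15 differing bases in 60. Over the aligned coding sequence the identity was 81.1% for Eif1 and Eif1b, 78.0% for Eif4a1 and Eif4a2 and 72.8% for Eif5a and Eif5a2. Of the 50-base words of Eif1 21.4% are shared, with 18 other genes of which Emd leads. Across the 48 detected members the share of such words and the level per kb had a Spearman coefficient of 0.12, a description across genes, which are not independent replicates.

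In all, 12 pairs of paralogues or cofactors were compared within libraries, and 10 kept 1 direction in 3 of 3 mice. The 10 include Eif3j1 over Eif3j2 and Eif2ak4 over Eif2ak1, where a gene had counts at or near 0. They also include the pairs with Eif4a1, whose level is uncertain. The most even was Eif1 over Eif1b, with log2 differences of 3.27, 3.28 and 3.38 per kb, a mean of 3.31 ± 0.06 or 9.92-fold. Eif4a1 lay below Eif4a3 by a log2 difference of -2.06 ± 0.15, and Eif4g1 below Eif4g3 by -1.48 ± 0.41. Over coding length in place of exon length no mean changed sign, but several sizes moved: 4.21 for Eif1 over Eif1b, 3.04 for Eif4e over Eif4e3, 7.31 for Eif4g2 over Eif4g1, 7.64 for Eif5a over Eif5a2, -1.01 for Eif4a1 over Eif4a3 and -2.01 for Eif4b over Eif4h. By coding length 11 pairs kept 1 direction, since Eif4b then lay below Eif4h in each mouse. By exon length the pairs that changed direction between mice were Eif4b over Eif4h (0.49, 0.03 and -1.71) and Eif2ak2 over Eif2ak1 (1.40, -0.35 and 1.40). For each of the 10 pairs the exact sign-flip test (two-sided) gave p = 0.25, again the lowest possible, and 0.3 after Benjamini-Hochberg adjustment over the 12 pairs. No pair could therefore pass 0.05, and the directions rest on the values in 3 libraries.

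**Figure D2:**
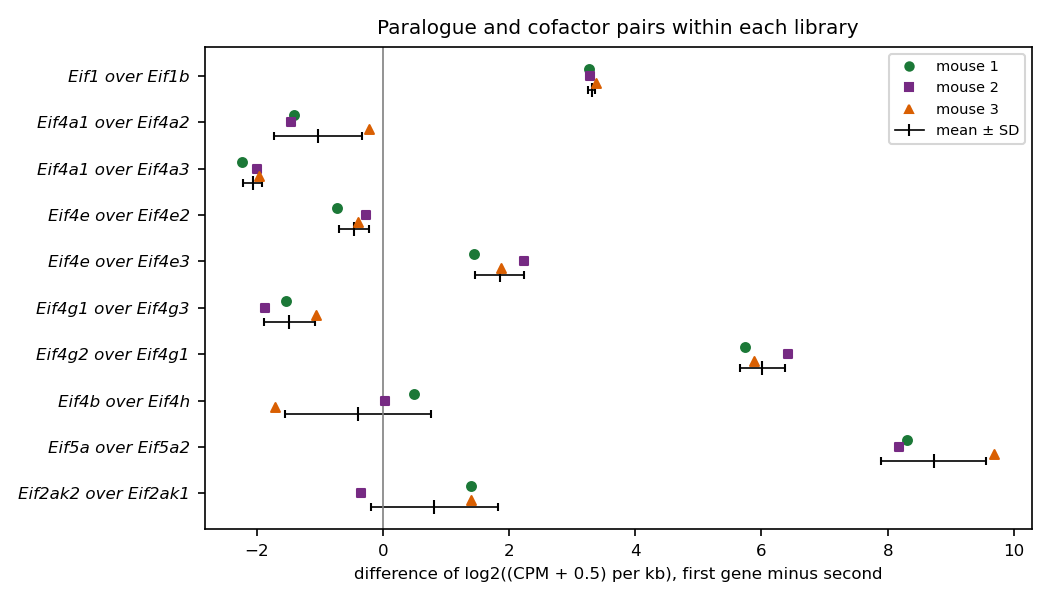
Difference of log2((CPM + 0.5) per kb) between the genes of 10 pairs, first gene minus second, with 1 symbol per mouse and the mean ± SD below it; the pairs with Eif3j2 and Eif2ak4 are left out because of counts at or near 0. Points of Eif1 over Eif1b lie together near 3.31, whereas those of Eif4b over Eif4h fall on both sides of 0.

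The initiation factors were then compared between the mice. Of the 48 members that passed the filter on low counts, 0 varied beyond the abundance trend in edgeR's F test of the quasi-dispersion (Benjamini-Hochberg adjusted p under 0.05 over 9175 genes), where 0.185% of all genes passed. In simulated data the test recovered only 5 of 100 genes raised 8-fold in 1 library. The widest spread among tested members was 4.07-fold, for Eif2d. A count of 0 was therefore likely beforehand and does not show that the members were stable. At an unadjusted p below 0.05 there were 2 members (4.17%), against 4.40% of all genes. Neither limma variances nor DESeq2 dispersion outliers marked a member. The median coefficient of variation of the members was 20.9%, against 30.2% over all genes tested. It was 11.1% without mouse 3 and 13.6% without mouse 2, where all genes had 24.0% in each case. Relative to the abundance trend, the median log2 ratio was -0.86 for the members and -0.41 for all genes, and 17 of 48 members lay above the trend (35.4%) against 40.4% of all genes. More than 2-fold between the highest and the lowest library was seen for 11 members (22.9%), against 42.1% of all genes.

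The members at the upper end were Eif4h, Eif2d and Eif5a. Eif4h had the highest log2 ratio to the trend at 2.84 (unadjusted p = 0.0115, adjusted p = 0.976 in the edgeR test), and its value in mouse 3 was 3.18 times that in mouse 1. Eif2d had a log2 ratio of 2.54 (unadjusted p = 0.0209, adjusted p = 0.976 in the edgeR test), and Eif5a one of 1.8. All 3 were highest in mouse 3. Mouse 3 also held the most immunoglobulin transcripts, 7.81% of counts against 3.89% in mouse 2 and 1.04% in mouse 1, and their part in these values was not tested. When immunoglobulin genes were left out, again 0 members passed, with 3 at an unadjusted p below 0.05. At the lower end were Eif3j1 (log2 ratio -7.62), Eif4e3 (-4.75) and Eif5 (-4.40), whose libraries differed by 1.08-fold, 1.16-fold and 1.08-fold.

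No mouse led for the set as a whole. Of the 48 tested members 15 (31.2%) peaked in mouse 1, 14 (29.2%) in mouse 2 and 19 (39.6%) in mouse 3, against 32.2%, 33.5% and 34.2% of all genes tested. The median log2 difference of the members, on log2(CPM + 0.5), was -0.09 for mouse 2 minus mouse 1, 0.02 for mouse 3 minus mouse 1 and 0.04 for mouse 3 minus mouse 2. For all genes tested these medians were -0.04, -0.01 and 0.02.

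**Figure D3:**
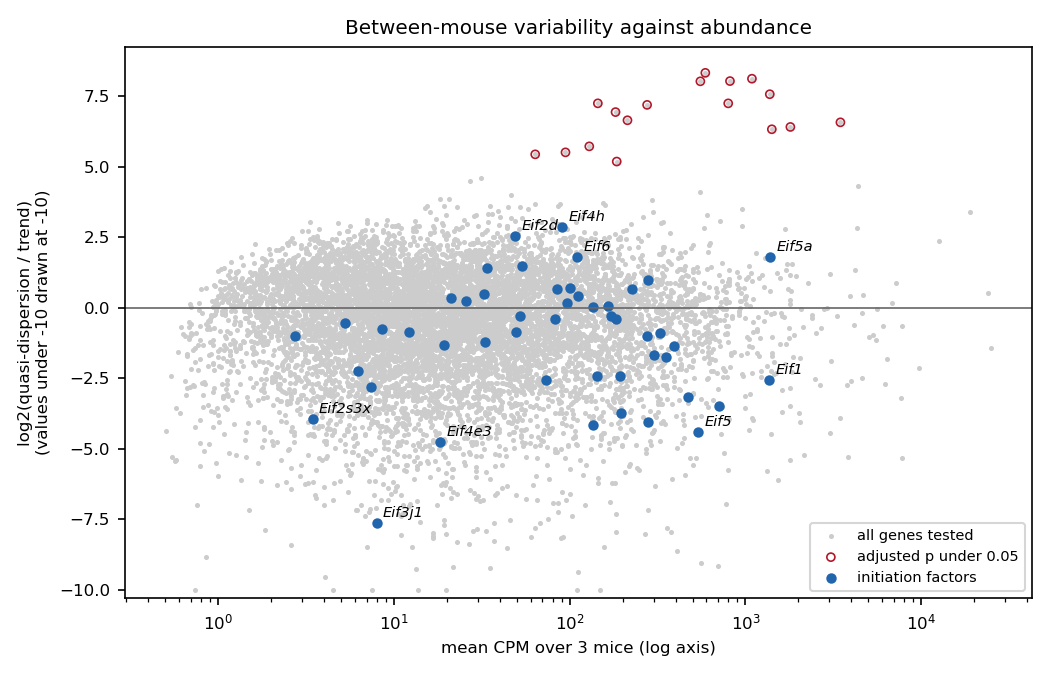
Log2 ratio of each gene's quasi-dispersion between 3 mice to the abundance trend, against mean CPM (log axis), for 9175 tested genes (grey), the 17 genes that passed the test (red circles) and 48 initiation factors (blue). No blue point lies among the red circles, and Eif4h and Eif2d are the highest blue points.

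A list of 60 other translation genes, from control of eIF2 and eIF4F to elongation and termination, was set beside the members. Of these, 50 (83.3%) were detected, and 0 of the 51 tested were more variable than the trend (edgeR test, 2 at an unadjusted p below 0.05). The low recovery of this test in simulated data applies here too. The median of the 50 detected genes was 10.1, 12.5 and 13.4 CPM per kb in mice 1, 2 and 3. The highest per length was Paip2, an inhibitor of poly(A)-binding protein, with 497 ± 76.2 CPM per kb. It was followed by the elongation factor Eef1a1 (376 ± 37.7) and the phosphatase catalytic subunit Ppp1ca (318 ± 92.0). Of their 50-base words 53.6% and 19.7% are shared with other genes, so the rank of Eef1a1 is uncertain. The lowest detected were Gcn1 (0.130 ± 0.0344), the activator of GCN2, the mTORC1 scaffold Rptor (0.231 ± 0.126) and the scanning helicase Dhx29 (0.432 ± 0.0809).

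Genes that act on eIF2 differed in level. The stress-induced phosphatase subunit Ppp1r15a (GADD34), which brings the phosphatase to eIF2, had 359, 164 and 490 CPM, and the constitutive Ppp1r15b (CReP) 51.2, 36.4 and 37.1 CPM. Ppp1r15a was lowest in mouse 2 (unadjusted p = 0.00743, adjusted p = 0.976 in the edgeR test). The kinase Eif2ak3 (PERK) had 1.01, 6.88 and 6.25 CPM. The transcription factors translated when eIF2 is phosphorylated were present, Atf4 with 87.8, 77.0 and 126 CPM and Ddit3 (CHOP) with 65.3, 99.2 and 72.4 CPM. Of the listed genes of the response to eIF2 phosphorylation, Ppp1r15a, Atf4 and Ddit3 were thus detected in each library. Asns had 6.75, 0.455 and 10.7 CPM, Trib3 0, 1.59 and 0 CPM and Chac1 0, 0 and 0.422 CPM. None of Asns, Trib3 and Chac1 reached the detection limit in all libraries. Atf5 also missed it, with 0, 1 and 3 counts.

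Among regulators of eIF4F, the 4E-binding protein gene Eif4ebp1 had 10.8, 22.1 and 17.4 CPM and Eif4ebp2 only 0, 6 and 6 counts. The enzymes that make hypusine on eIF5A were far below their substrate, with 17.9, 22.1 and 46.6 CPM for Dhps and 10.4, 3.53 and 15.4 CPM for Dohh. The level of Dohh is uncertain, as 46.5% of its 50-base words are shared, chiefly with Gm48551. Dhps was highest in mouse 3, as Eif5a was. Eef2, the elongation factor that moves the ribosome, had 81.0, 49.6 and 77.5 CPM, and its kinase gene Eef2k 0, 2 and 9 counts. Of the remaining genes below the detection limit, Mcts2 had 98, 0 and 41 counts, Rps6kb2 1.90, 0.682 and 18.5 CPM (23.4% of its 50-base words shared, with Ptprcap), and Eef1a2 and Gspt2 0 counts. Rps6, the ribosomal protein that S6 kinases phosphorylate, had 26.4, 29.5 and 31.9 CPM, but 84.6% of its 50-base words are shared, chiefly with pseudogenes, so its level is uncertain.

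**Figure D4:**
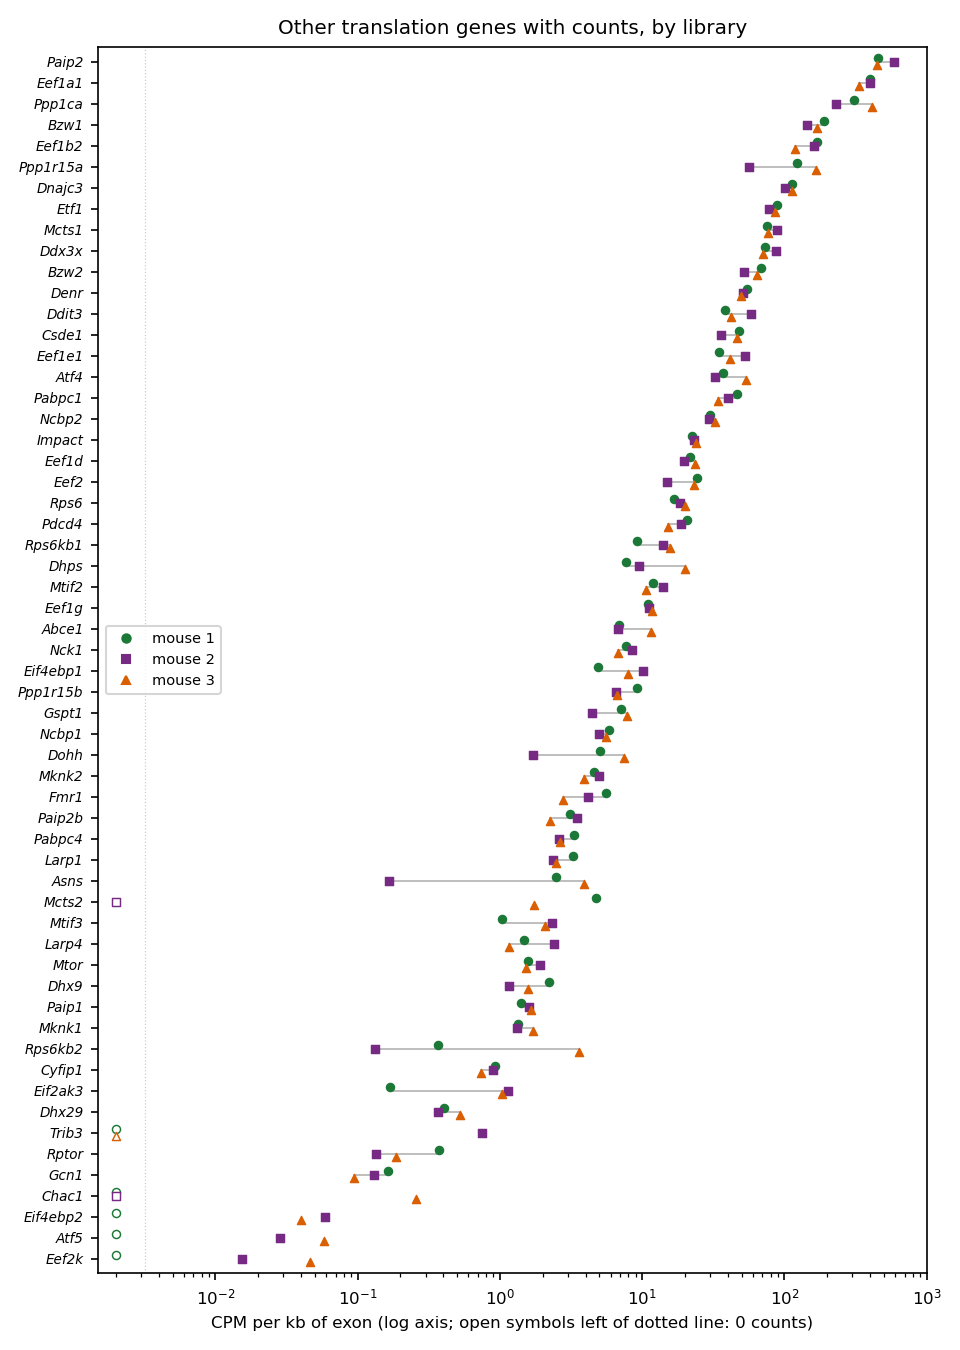
Level of the other translation genes that had counts, in CPM per kb of exon (log axis), in descending order of their mean, with 1 symbol per mouse. Paip2, Eef1a1 and Ppp1ca lie highest, and the libraries of Rps6kb2 and Ppp1r15a lie further apart than those of their neighbours. Those of Asns and of the adjacent Mcts2, which had 0 counts in mouse 2, are also far apart.

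Longer genes tended to lower counts in the set and outside it. Across the 48 detected members coding length and mean CPM had a Spearman coefficient of -0.26, and across 7954 detected protein-coding genes it was -0.34. Genes are not independent replicates, and the points share the same libraries.

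The series is titled for the circadian clock, whose activator binds the E-box CACGTG, a site that MYC proteins also bind. RefSeq promoters on GRCm38.p6, from 250 bases before to 50 after the start site, were found for 41 members, and 10 of them (24.4%) held CACGTG, which reads the same on each strand. Of all 27025 genes with a promoter entry, detected here or not, 8.09% held it. A gene with several promoters was counted if any of them held it. The share among detected genes was not computed, so these shares do not compare like sets of genes. The carriers were Eif1b, Eif3a, Eif3f, Eif3k, Eif4a1, Eif4e, Eif4g1, Eif4h, Eif5a and Eif5a2, with mean levels from 1.01 (Eif4g1) to 579 CPM per kb (Eif5a). Upstream stretches of 4 of them, chosen to include a high and a low eIF3 or eIF4G gene and the most variable member, are shown with the E-box in capitals.
Eif3k: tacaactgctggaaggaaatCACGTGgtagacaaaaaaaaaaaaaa
Eif3f: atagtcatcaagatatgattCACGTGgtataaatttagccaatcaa
Eif4h: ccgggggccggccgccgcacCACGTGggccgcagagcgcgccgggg
Eif4g1: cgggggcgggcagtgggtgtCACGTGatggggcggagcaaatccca
They lie at chr7:28981907-28981952 (minus strand), chr7:108934327-108934372 (plus), chr5:134639480-134639525 (minus) and chr16:20672653-20672698 (plus). The element TGATGNAA, searched on both strands and known as a site of ATF4 with C/EBP partners, was held by 1 of the 41 members, Eif2s3x, and by 4.51% of genes. A match is a description of the letters and not a measured site, and without a labelled time of collection no daily rhythm can be read from these libraries.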

How the data were processed

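The deposited table holds raw read counts per Entrez gene ID, 1 column per library, and no normalization was applied to it. CASAVA 1.8.2, STAR 2.3.0 and mm10 are named in the submitters' processing notes. The counting program, annotation and treatment of multi-mapped reads are not stated in the sources used here. IDs were matched to RefSeq GRCm38.p6 (25275 of 27179). Unmatched IDs held 0.186% to 0.242% of counts and were kept.

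CPM were scaled by TMM (edgeR 4.0.16, R 4.3.3; factors 0.987 to 1.03). Detection meant 1 CPM in each library. Lengths were summed exons of GENCODE M21, available for all 52 members. Pair differences used log2((CPM + 0.5) per kb) and an exact sign-flip test. Variability used an intercept-only quasi-likelihood fit on 9175 genes past filterByExpr (minimum count 10) and an upper-tail F test against the trend. Tested on simulated data with 9042 genes, it recovered 5 of 100 genes raised 8-fold in 1 library and 87 of 100 raised 64-fold, with 0 false calls. Shared 50-base words were counted over all GENCODE transcripts. The mice are the only replicates, and the spread includes sorting and amplification.

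The text names the members of the fixed pairs, the 5 highest and 5 lowest detected per length, the 3 most and 3 least variable and those not detected, with other members by family. Other translation genes were named by their 3 highest and 3 lowest levels, by lack of detection and from a short preset list. Members and lists were chosen with earlier results of these data known. The alternatives tried were size factors of DESeq2 1.42.0 or no TMM, limma 3.58.1 variances, other filters, pseudocounts and lengths, and leaving out each mouse.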

Additional observations from a re-analysis of the deposited data

Results flagged for a closer look

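A pseudogene row outside the members carried a low signal: Eif1-ps3 had 13, 11 and 14 counts in mice 1, 2 and 3, or 38 in all, above the 3 counts per library that a count of 0 allows. Groups of 3 libraries are too small for a test of single outlying samples, and with 1 group no contrast between groups could be compared.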

How the results depend on the processing

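No paired analysis was possible because only 1 group exists. For the main results 77 alternative values stayed within 1.5 times (counts) or 1 SD (values) and 4 did not. Coding length, added after the data were seen, raised the median level of detected members to 94.3 CPM per kb. Division by a shorter length raises each level by construction. Coding length also raised the excess of eIF2 over eIF2B to 3.77. That excess is a difference of log2 levels, which shorter lengths do not raise by construction, so its size depends on the length used. Coding length from a protein table, as planned, was not run. Without each mouse in turn, the median coefficient of variation of the members was 11.1% to 19.4% (11.1% without mouse 3, where all genes had 24.0%), 48 to 49 members were detected, their summed level was 9205 to 9691 CPM, 10 to 11 of 12 pairs kept 1 direction, and the eIF2 excess was 1.67 to 2.34. Eif4b over Eif4h reversed without mouse 3, from -0.39 to 0.26, its range without each mouse being -0.84 to 0.26. In every setting 0 members were called, but the test rarely recovered 8-fold changes in simulated data. Over all genes the calls were 17 in the report, 31 without mouse 1 and 27 where the mean reached 5 CPM. They were 1 without immunoglobulin genes and 0 with a robust prior. The cause was not tested. For single pairs 101 values stayed within 1 SD, 18 moved by more but kept their direction and 1 reversed. Depth limits Eif2s3x, Eif3j2, Eif4a3l1 and Eif2ak4, which had 0 to 127 counts per library.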
